A study of Mus musculus with 4 samples.

Results

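Pcna, the 5 genes of replication factor C (Rfc1, Rfc2, Rfc3, Rfc4 and Rfc5) and the 3 genes of replication protein A (Rpa1, Rpa2 and Rpa3) were taken by symbol from the array table. All 9 genes were on the array, with 18 probes between them, and all 9 were among the 12616 genes analysed. A probe counted as detected on an array where its detection p-value was below 0.01. By this rule 15 of the 18 probes were detected on all 4 arrays, 2 were detected on none, and 1 was detected on 2 arrays. Each of the 9 genes had at least 1 probe detected on all 4 arrays, and the brightest probe stood for its gene.

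The arrays compared mouse embryonic fibroblasts (MEFs) of mixed FVB;129 strain prepared from Rb f/f mice, in which both copies of the retinoblastoma gene carry LoxP sites. Parental MEFs received solution without TAT-Cre and medium without virus, and Rb-deleted MEFs received TAT-Cre, a recombinase that enters cells by itself, and medium without virus, each as 2 exposures of 1 h separated by 3 h. The WT Rb-HA and the ΔCdk Rb-HA MEFs received TAT-Cre together with a retrovirus for tagged wild-type Rb or for tagged Rb whose Cdk phosphorylation sites were changed to alanine, so both stand on the Rb-deleted background. The labels do not mention a drug. Per the study's text the cells of all 4 groups were released from contact inhibition for 4 h and then given doxorubicin, which damages DNA, at 100 ng/ml for 3 h, so by that account no group is free of the drug. The number of embryos behind each culture and the share of cells recombined or infected are not given in the sources used here.

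Each group was 1 array, so no p-values were computed, and the bead standard error, the spread over the 29 to 67 beads of a probe on 1 array, is the only error available. It leaves out all variation between cultures. An array detected 15950 to 16740 of 45281 probes, with mean background intensities of 39.5 to 41.0. The brighter of 2 Rb1 probes, at transcript position 4421, had an intensity of 543 in parental, 160 in Rb-deleted, 181 in WT Rb-HA and 170 in ΔCdk Rb-HA MEFs. The parental array thus stood apart from the other 3, but these probes did not separate the arrays with retroviral Rb from the Rb-deleted one. Whether they lie in the removed stretch or in the viral construct is not given in the sources used here. All 12 fibroblast markers (Col1a1, Col1a2, Vim and others) were detected on every array. Of 12 leukocyte markers 10 were analysed, and 9 of these were detected on the parental array. Their summed intensity was 5613 in parental and 2223 to 2780 in the other MEFs. The brightest on the parental array was Laptm5, at an intensity of 2286. Ptprc, which encodes the pan-leukocyte antigen CD45, and Fcer1g were not detected on any array.

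PCNA is a ring that encircles DNA and holds the replicative polymerases and many repair enzymes on the template. Replication factor C is the ATP-driven loader that opens the ring and closes it around a primer-template junction, with a large subunit (Rfc1) and 4 small subunits (Rfc2 to Rfc5) that also serve in alternative loaders. Replication protein A coats single-stranded DNA behind the helicase and at sites of damage, and its large (Rpa1), middle (Rpa2) and small (Rpa3) subunits work as a trimer. Genes for these factors are known as E2F targets that Rb holds down in G1 phase. In RNA from whole cultures, fewer cells expressing a gene and less RNA per cell cannot be told apart.

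RefSeq promoters of 300 bases, 250 before to 50 after the start site, were found for 8 of the 9 genes in GRCm38.p6; Rfc2 was not matched. Both strands were searched for E2F-type letters of length 8 (TTTCGCGC, TTTGGCGC, TTTCCCGC and TTTGCCGC) and for the same letters without the first T, of length 7, so every longer match also holds a shorter one. The longer letters were found in 1 of 8 promoters, that of Rfc3, and in 2.26% of 32851 promoters of all genes. The shorter letters were found in 5 of 8 promoters (Rfc1, Rfc3, Rfc4, Rpa2 and Rpa3) and in 9.57% of all promoters. The promoter of Rfc3 is shown because it alone held the longer letters, that of Rpa2 because it had the largest change after Rb deletion among genes with a match, and those of Pcna and Rpa1 because these genes gave the smallest and the largest change after Rb deletion and had no match. Capitals mark the 7-letter matches.
Rfc3, chr5:151651159-151651458, minus strand: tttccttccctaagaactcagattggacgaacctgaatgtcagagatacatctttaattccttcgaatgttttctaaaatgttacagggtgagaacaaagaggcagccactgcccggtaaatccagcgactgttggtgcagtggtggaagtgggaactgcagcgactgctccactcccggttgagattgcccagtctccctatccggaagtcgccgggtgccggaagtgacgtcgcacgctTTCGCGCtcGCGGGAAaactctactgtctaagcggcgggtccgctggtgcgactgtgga
Rpa2, chr4:132768110-132768409, plus strand: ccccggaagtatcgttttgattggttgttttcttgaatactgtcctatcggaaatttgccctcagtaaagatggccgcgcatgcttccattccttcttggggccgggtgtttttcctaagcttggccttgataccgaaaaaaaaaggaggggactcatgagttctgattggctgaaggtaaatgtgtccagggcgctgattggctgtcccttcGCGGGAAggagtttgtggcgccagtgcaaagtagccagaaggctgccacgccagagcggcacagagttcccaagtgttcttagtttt
Pcna, chr2:132253131-132253430, minus strand: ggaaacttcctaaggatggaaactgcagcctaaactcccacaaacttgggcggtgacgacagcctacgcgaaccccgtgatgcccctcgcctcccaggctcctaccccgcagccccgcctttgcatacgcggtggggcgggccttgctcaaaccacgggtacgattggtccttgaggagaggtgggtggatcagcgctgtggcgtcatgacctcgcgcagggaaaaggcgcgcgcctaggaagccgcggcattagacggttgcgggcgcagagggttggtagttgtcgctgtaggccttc
Rpa1, chr11:75348334-75348633, minus strand: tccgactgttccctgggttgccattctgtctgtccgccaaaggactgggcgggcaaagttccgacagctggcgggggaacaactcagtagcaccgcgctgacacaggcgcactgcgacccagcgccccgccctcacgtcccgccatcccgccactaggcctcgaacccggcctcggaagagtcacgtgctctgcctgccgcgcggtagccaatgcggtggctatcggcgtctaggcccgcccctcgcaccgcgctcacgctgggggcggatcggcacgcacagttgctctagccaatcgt

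Positions of matches are counted from the start site, with 1 the first base after it and negative numbers before it, and give the leftmost base of the match. In Rfc3 the pair of 7-letter matches began at -9 and 1, on opposite strands. In Rpa2 the match began at -37 and in Rpa3 at -29, while those of Rfc1 (28 and 31, overlapping) and Rfc4 (12) lay after the start site. CCAAT was found in 6 of 8 promoters against 37.4% of all promoters, and the GC box GGGCGG in 5 of 8 against 35.7%. G and C made up 50.7% to 69.3% of the 8 promoters. The shares of all promoters were not matched for base composition or limited to the genes analysed. A match is a description of letters, and the absence of a match in Pcna, Rfc5 and Rpa1 says only that these letters are not in this window.

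Whether loss of Rb altered the transcripts of these genes was read from the Rb-deleted and parental arrays. All 9 genes were above parental in Rb-deleted MEFs, and 7 passed 1.6-fold, the study's filter (0.68 on the log2 scale). Of all genes analysed, 52.3% were above 0 in this comparison, 2.14% passed 1.6-fold upward and 2.98% downward. The 5 loader genes passed together with Rpa1 and Rpa2, while Rpa3 and Pcna did not. The median log2 ratio of the 9 genes was 0.87, or 1.83-fold, against 0.02 for all genes analysed. Each of the 9 ratios exceeded 2 bead standard errors, as did those of 6457 of all 12616 genes in either direction. No gene of the 9 was lower. Unlike the 9 genes, the summed leukocyte markers were highest on the parental array, with 8 of 10 down past 1.6-fold in Rb-deleted MEFs. Their part in the result was not tested.

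Pcna gave the smallest change of the 9. Its single probe, at transcript position 1063, had deposited intensities of 304 in parental, 359 in Rb-deleted, 294 in WT Rb-HA and 376 in ΔCdk Rb-HA MEFs. The Rb-deleted and ΔCdk Rb-HA arrays were the high pair, and the parental and WT Rb-HA arrays the low pair. The log2 ratio of Rb-deleted to parental was 0.30 (bead standard error 0.11), or 1.23-fold, rank 2096 from the highest of 12616 genes. The arrays of each pair lay within 2 bead standard errors of each other.

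**Figure D1:**
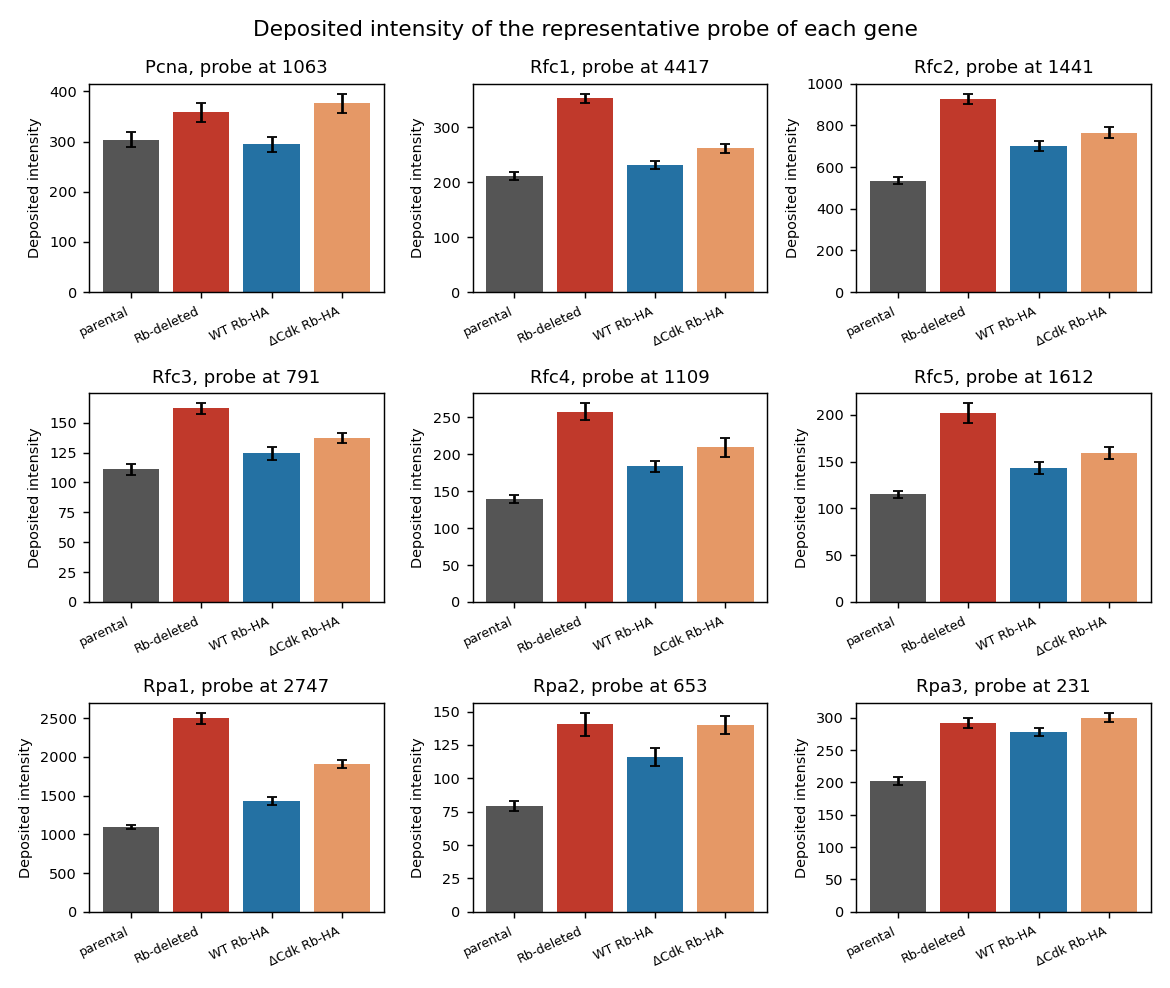
Deposited intensity (vertical axes, linear, not normalized between arrays) of the representative probe of each gene on the 4 arrays, with the bead standard error as error bars and the start of the probe on its transcript in each title. Rb-deleted bars are the tallest for Rfc1 to Rfc5 and Rpa1, and for Rpa2 the Rb-deleted and ΔCdk Rb-HA bars are level, at 140.3 and 139.9. The Pcna bars are 359 for Rb-deleted and 304 for parental, the smallest ratio of the 9.

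Rfc1, the large subunit of the loader, had intensities of 211 in parental, 353 in Rb-deleted, 232 in WT Rb-HA and 262 in ΔCdk Rb-HA MEFs. The Rb-deleted array stood above the other 3, and its log2 ratio over parental came to 0.85 (bead standard error 0.07). Among the small subunits Rfc4 gave the largest ratio. Its intensities were 139 in parental, 258 in Rb-deleted, 184 in WT Rb-HA and 210 in ΔCdk Rb-HA MEFs, and the log2 ratio of Rb-deleted to parental was 1.05 (0.10). Rfc5, another small subunit, had intensities of 115, 202, 143 and 159 in the same order of groups and a log2 ratio of 0.98 (0.10). Rfc2, a further small subunit, had intensities of 536, 928, 701 and 766 and a log2 ratio of 0.87 (0.07). Rfc3 had intensities of 111, 162, 124 and 137, and its log2 ratio of 0.68 (0.09) lay just above the filter. Rfc3 did not pass without background correction (0.56), with an offset of 50 in that correction (0.52) or without normalization between arrays (0.67). The representative probes of the loader subunits thus shared one shape over the arrays, with Rb-deleted highest, then ΔCdk Rb-HA, then WT Rb-HA, then parental.

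Rpa1, the DNA-binding large subunit of RPA, gave the largest change of the 9 genes. Its intensities were 1098 in parental, 2496 in Rb-deleted, 1431 in WT Rb-HA and 1912 in ΔCdk Rb-HA MEFs. The log2 ratio of Rb-deleted to parental was 1.28 (bead standard error 0.05), or 2.43-fold, rank 24 of 12616 genes. Rpa2, the subunit phosphorylated after DNA damage, was dim, with intensities of 79.2, 140, 116 and 140 in the same order of groups. Its log2 ratio of 1.10 (0.14) ranked 45. Rpa3, the small subunit, had intensities of 202, 293, 278 and 300, with the parental array far below the other 3. Its log2 ratio was 0.62 (0.06), or 1.54-fold, just short of the filter.

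**Figure D2:**
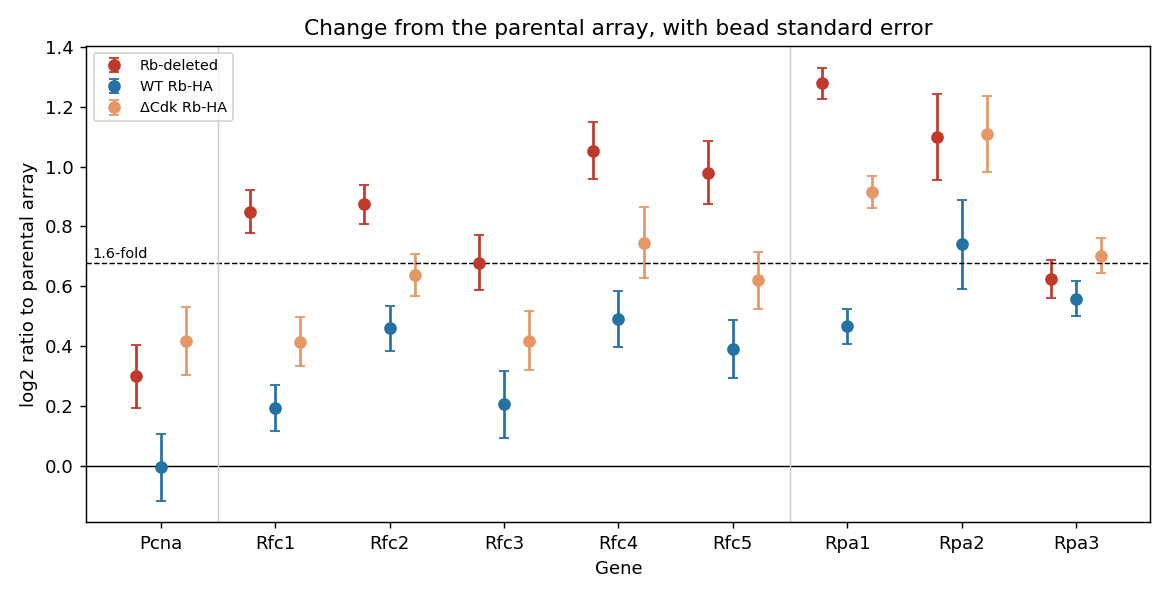
Log2 ratio to the parental array (vertical axis) of each gene in the other 3 kinds of MEFs, with the bead standard error as error bars and a dashed line at 1.6-fold. Rb-deleted points pass the line for 7 of 9 genes, WT Rb-HA points for Rpa2 alone, and ΔCdk Rb-HA points for Rfc4, Rpa1, Rpa2 and Rpa3. All 3 ratios share the parental array.

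Whether re-expressed wild-type Rb lowered these transcripts was read from WT Rb-HA against Rb-deleted MEFs. All 9 genes were lower with WT Rb-HA, where 53.7% of all genes were below 0. The median log2 ratio was -0.47 against -0.02 for all genes. Of the 9 ratios, 8 exceeded 2 bead standard errors, as did those of 4269 of all 12616 genes in either direction. Rpa1 alone passed 1.6-fold downward, where 0.484% of all genes did. Its log2 ratio was -0.81 (bead standard error 0.06), rank 25 from the lowest. Rfc1 at -0.65 (0.06), Rfc5 at -0.59 (0.11) and Rfc4 at -0.56 (0.09) came next and were short of the filter. Rpa3 changed least, at -0.06 (0.05), within 2 bead standard errors of 0. Between these lay Rfc3 at -0.47 (0.09), Rfc2 at -0.41 (0.07), Rpa2 at -0.36 (0.15) and Pcna at -0.30 (0.12). G2/M genes, 12 analysed of a list of 16, were lower in 11 of 12 with a median of -0.26, and leukocyte markers were lower in 9 of 10 with a median of -0.18. Neither list had a gene past 1.6-fold here, and their part in the result was not tested.

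Set against parental MEFs, WT Rb-HA MEFs remained above for 8 of the 9 genes, where 51.3% of all genes were above 0. Of the 9, 1 gene, Rpa2, passed 1.6-fold, where 0.888% of all genes did. The median log2 ratio was 0.46 against 0.01 for all genes. The ratio of Rpa2 was 0.74 (bead standard error 0.15), that of Rpa3 0.56 (0.06) and that of Rfc4 0.49 (0.10). At other probes Rpa2 gave 0.05 (0.12), at position 1084, and Rfc4 gave -0.08 (0.15), at 882. Pcna, at -0.00 (0.11), differed from parental by less than its bead standard error. The leukocyte markers were lower here too, with a median of -1.02, and their part was not tested. This comparison shares an array with each of the 2 before it, and Rpa2 did not pass without background correction.

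Whether Rb that cannot be phosphorylated by Cdks lowered the same transcripts was read from ΔCdk Rb-HA against Rb-deleted MEFs. Here 6 genes were lower and 3 were higher, where 54.4% of all genes were below 0 and 45.4% above. The median log2 ratio was -0.26 against -0.03 for all genes. Of all 12616 genes, 6097 differed by more than 2 bead standard errors in either direction. None of the 9 passed 1.6-fold, where 1.95% of all genes passed downward and 2.31% upward. Lower were the 5 loader genes and Rpa1, each by more than 2 bead standard errors, from -0.43 (bead standard error 0.07) for Rfc1 to -0.24 (0.06) for Rfc2. These are readings of the representative probes, and other probes of the loader genes did not all share them. Rfc2 gave -0.20 (0.07) at position 1160, -0.09 (0.10) at 1164 and 0.10 (0.11) at 447, and the dim probes gave 0.01 (0.16) for Rfc4 and 0.04 (0.16) for Rfc5. The Rfc3 probe at 74, detected on both of these arrays, gave 0.45 (0.14), the opposite direction. With probes averaged, the ratio was -0.11 for Rfc2, 0.09 for Rfc3, -0.15 for Rfc4 and -0.16 for Rfc5. Pcna at 0.12 (0.12), Rpa2 at 0.01 (0.13) and Rpa3 at 0.08 (0.05) lay within 2 bead standard errors of Rb-deleted MEFs. Against parental MEFs, all 9 genes were above in ΔCdk Rb-HA MEFs with a median of 0.64, where 48.9% of all genes were above 0. Of the 9, 4 passed 1.6-fold, where 2.58% of all genes passed upward and 3.3% downward. By their representative probes these were Rpa2 at 1.11 (0.13), Rpa1 at 0.91 (0.05), Rfc4 at 0.75 (0.12) and Rpa3 at 0.70 (0.06). These are all 3 RPA genes and 1 of the 5 loader genes, but the set depended on the probe. Rfc2, at 0.64 (0.07) by its representative probe, passed at its other probes, with 0.72 (0.09), 0.82 (0.10) and 0.90 (0.12). The Rfc4 probe at 882 gave 0.14 (0.12), and the Rpa2 probe at 1084 gave 0.676 (0.15), just short. With probes averaged, Rfc2 passed at 0.77 and Rfc4 at 0.44 did not. Without background correction 2 of the 9 passed. The leukocyte markers had a median of -0.96 in this comparison, and their part was not tested.

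The mutant and wild-type proteins were compared directly, as the ratio of the ΔCdk Rb-HA array to the WT Rb-HA array. By their representative probes all 9 genes were higher with ΔCdk Rb-HA, by 0.14 to 0.45 on the log2 scale. The median was 0.23 against -0.01 for all genes. Every one of these ratios exceeded 2 bead standard errors, as did those of 4600 of all 12616 genes in either direction. None of the 9 passed 1.6-fold, where 0.84% of all genes passed upward and 1.01% downward. Rpa1 at 0.45 (bead standard error 0.06), Pcna at 0.42 (0.12) and Rpa2 at 0.37 (0.14) gave the larger differences. By their representative probes the 5 loader genes lay close together, from 0.18 (0.07) for Rfc2 to 0.26 (0.12) for Rfc4. With probes averaged they ran from 0.20 for Rfc5 to 0.33 for Rfc3, with Rfc2 also at 0.33. Of 12616 genes analysed, 48.5% were above 0 in this comparison. The G2/M genes were also higher with ΔCdk Rb-HA, in 12 of 12 genes with a median of 0.36 and none past 1.6-fold, while its median between Rb-deleted and parental MEFs was 0.01. Fibroblast markers were lower with ΔCdk Rb-HA in 11 of 12 genes, with a median of -0.24 and summed intensities of 51519 against 60277. Leukocyte markers were higher in 7 of 10 genes, with a median of 0.23 and 2 past 1.6-fold. The part of these lists in the result was not tested.

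The comparisons of Rb-deleted with parental MEFs and of ΔCdk Rb-HA with WT Rb-HA share no array, though all 4 arrays were normalized together. All 9 genes were above 0 in both, as were 23.5% of all genes analysed. Rpa1 and Rpa2 were the upper pair of the 9 in the first comparison, with log2 ratios of 1.28 and 1.10, and were among the upper 3 in the second. Pcna was lowest in the first, at 0.30, and next to Rpa1 in the second, at 0.42.

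**Figure D3:**
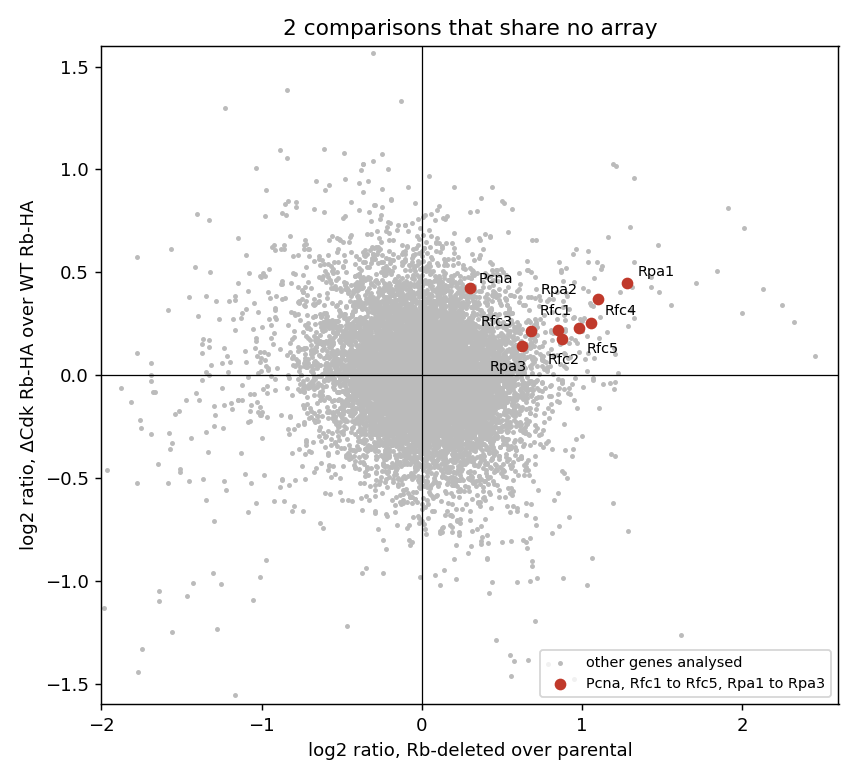
Log2 ratio of Rb-deleted to parental MEFs (horizontal axis) against the log2 ratio of ΔCdk Rb-HA to WT Rb-HA MEFs (vertical axis), with 1 point for each gene analysed and the 9 genes in red; 31 genes lie outside the axes. The 9 genes all sit above 0 on both axes, with Pcna to the left and Rpa1 farthest to the right.

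Ordered by the level of the representative probe over the 4 arrays, 6 genes (Rfc1 to Rfc5 and Rpa1) ran from Rb-deleted to ΔCdk Rb-HA, WT Rb-HA and parental. Rpa2 and Rpa3 had ΔCdk Rb-HA and Rb-deleted at the top, within 2 bead standard errors of each other, and parental lowest. Pcna had the same pair at the top and parental and WT Rb-HA level at the bottom. In Rfc3, WT Rb-HA and parental were also within 2 bead standard errors, and in Rpa3 so were Rb-deleted and WT Rb-HA. All other neighbours in the order differed by more than that.

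For the 5 genes with more than 1 probe, the probes were read 1 by 1. Rfc2 had 4 probes detected on all arrays, with log2 ratios of Rb-deleted to parental of 0.87, 0.92, 0.91 and 0.80. The pair at transcript positions 1160 and 1164 share 47 bases and are nearly one measurement. The first 30 bases of each are shown to make the overlap visible, with the shared bases in capitals.
Rfc2 probe at 1160: ctcCACTGATGGAACTAGGAGAGTCTTTGT
Rfc2 probe at 1164: CACTGATGGAACTAGGAGAGTCTTTGTTGT
The remaining Rfc2 probes, at 447 and 1441, share no such stretch and still passed 1.6-fold in Rb-deleted MEFs. For ΔCdk Rb-HA over WT Rb-HA the same 4 probes gave log2 ratios of 0.18 (position 1441), 0.38 (1160), 0.39 (1164) and 0.39 (447), so the representative probe was the lowest of them.

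Rpa2 had intensities of 92.1 in parental, 143 in Rb-deleted, 95.0 in WT Rb-HA and 130 in ΔCdk Rb-HA MEFs at its second detected probe, at position 1084. There the Rb-deleted and ΔCdk Rb-HA arrays were high, and WT Rb-HA was close to parental, at a log2 ratio of 0.05 (bead standard error 0.12). The representative probe at 653 gave 0.74 (0.15) for the same ratio. For WT Rb-HA over Rb-deleted the probe at 1084 gave -0.78 (0.13), past 1.6-fold downward, and the probe at 653 gave -0.36 (0.15). The probes of Rpa2 thus gave unlike readings of the WT Rb-HA array, and neither decides the level there.

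Dim probes were at intensities of 66.9 to 72.1 for Rfc4 (position 882) and 59.0 to 70.6 for Rfc5 (position 299). Their log2 ratios of Rb-deleted to parental were 0.12 (bead standard error 0.16) and 0.38 (0.16), well short of the bright probes. Rfc3 at position 74 was detected on the Rb-deleted and ΔCdk Rb-HA arrays, and in ΔCdk Rb-HA MEFs it was at least 1.33-fold above parental and at least 1.32-fold above WT Rb-HA, with intensities of 67.5, 56.9 and 57.0. On the Rb-deleted array the same probe was at 55.3. A probe of Rfc5 at position 3 and one of Rpa2 at position 705 were not detected on any array. With all analysed probes of a gene averaged, 5 genes passed 1.6-fold in Rb-deleted MEFs, since Rfc3 (0.32) and Rfc4 (0.59) did not.

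**Figure D4:**
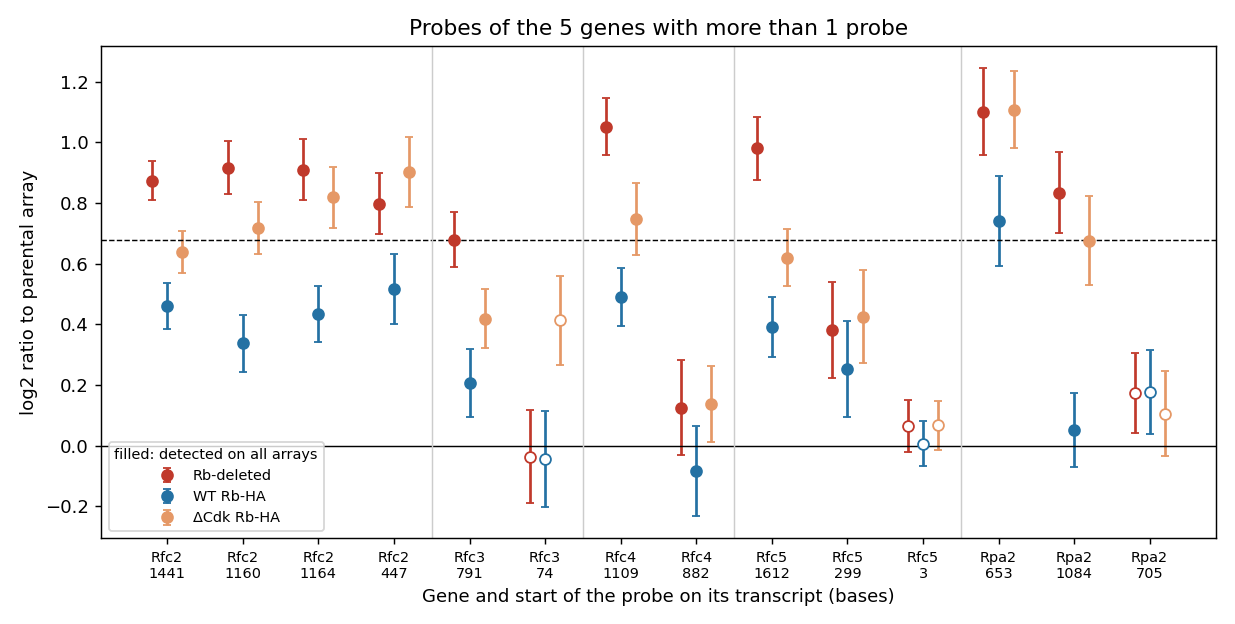
Log2 ratio to the parental array (vertical axis) for every probe of the 5 genes with more than 1 probe, named by gene and start of the probe on its transcript, with the bead standard error as error bars and a dashed line at 1.6-fold. Filled points mark probes detected on all 4 arrays. The 4 Rfc2 probes lie between 0.80 and 0.92 in Rb-deleted MEFs, while the dim Rfc4 probe at 882 is at 0.12.

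Proteins that bind PCNA were counted from a list of 23 genes, of which 21 were analysed. In Rb-deleted MEFs 20 of the 21 were above parental and 8 passed 1.6-fold, with a median log2 ratio of 0.55. Of all genes analysed, 52.3% were above 0 in this comparison and 2.14% passed upward. Ung, a uracil-DNA glycosylase, had intensities of 110 in parental, 490 in Rb-deleted, 243 in WT Rb-HA and 253 in ΔCdk Rb-HA MEFs and a log2 ratio of 2.46 (bead standard error 0.11). Lig1, the ligase that joins Okazaki fragments, was at 1.71 (0.12), and Chaf1a, a subunit of the histone chaperone CAF-1, at 1.48 (0.08). All 3 were above each of the 9 clamp, loader and RPA genes in this comparison. With WT Rb-HA, 6 of the 21 fell past 1.6-fold from Rb-deleted, where 0.484% of all genes did, and the median was -0.30. With ΔCdk Rb-HA 2 of the 21 did, Ung at -0.99 (0.08) and Lig1 at -0.68 (0.07), where 1.95% of all genes did. The median there was -0.19. None of the 21 passed 1.6-fold either way in ΔCdk Rb-HA over WT Rb-HA, where the median was 0.12. Of all genes, 0.84% passed upward there and 1.01% downward.

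Proteins that bind RPA were counted from 11 genes, all analysed. In Rb-deleted MEFs 11 of 11 were above parental with a median of 0.38, and 2 passed 1.6-fold, beside the same shares of all genes. Tipin, which with Timeless travels at the fork and binds RPA, had intensities of 366 in parental, 649 in Rb-deleted, 456 in WT Rb-HA and 547 in ΔCdk Rb-HA MEFs and a log2 ratio of 0.92 (bead standard error 0.07). Other clamps and loaders, the 9-1-1 checkpoint clamp and the alternative large loader subunits among them, were counted from 9 genes, of which 6 were analysed. None passed 1.6-fold in any of the 6 comparisons, where 0.484% to 3.3% of all genes passed in a given direction. At such shares 0 of 6 genes says little. The median in Rb-deleted MEFs was 0.23, with values from -0.10 to 0.54. These other lists are given as counts, and no difference between them and the 9 genes was tested.

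**Figure D5:**
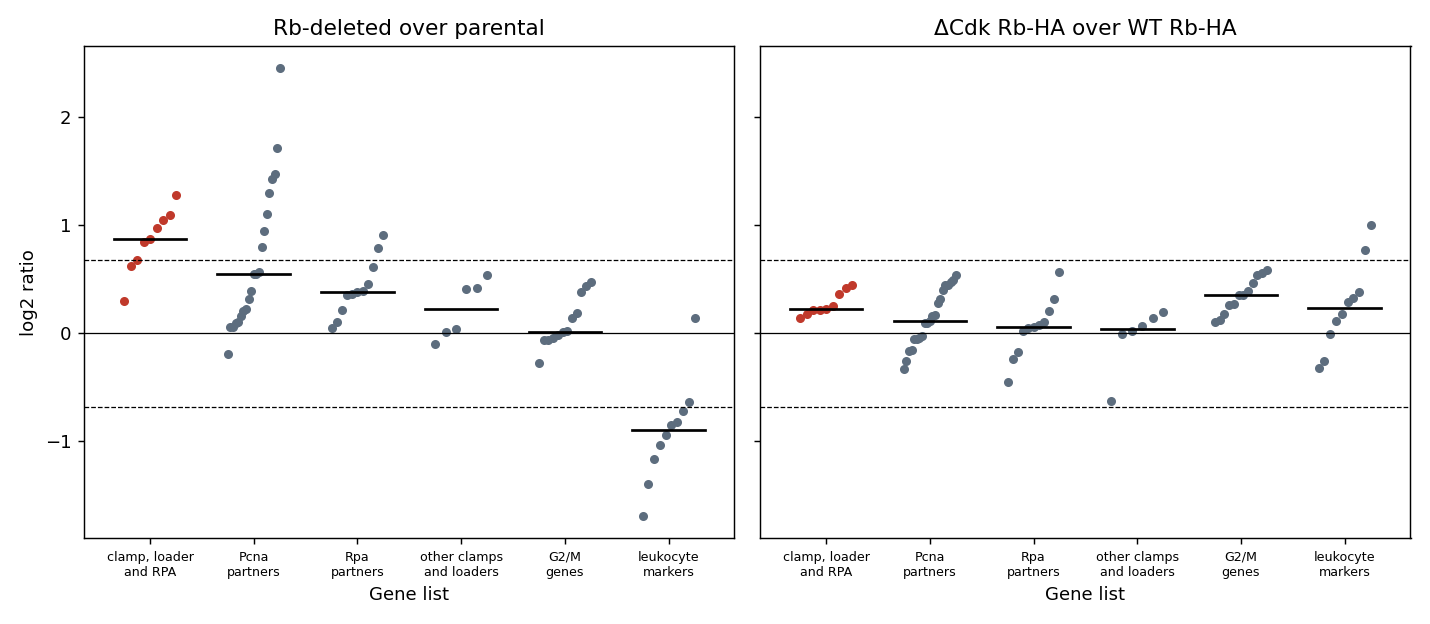
Log2 ratio of each analysed gene (points, sorted within a list) for Rb-deleted over parental MEFs (left) and ΔCdk Rb-HA over WT Rb-HA MEFs (right), with the median of each list as a bar and dashed lines at 1.6-fold in both directions. On the left the 9 clamp, loader and RPA genes lie between 0.30 and 1.28 and the other clamps and loaders between -0.10 and 0.54. On the right no gene of the first 5 lists passes 1.6-fold, where 0.84% of all genes pass upward and 1.01% downward.

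Genes with the most similar pattern were sought among 10828 other genes detected on all arrays, by the Euclidean distance over the 3 log2 ratios to parental. Nearest to Pcna were Mvk, which encodes mevalonate kinase (distance 0.053), Ccdc5 (0.055) and Rabif (0.060), and 10 genes lay within 0.1. Nearest to the median of the 5 loader genes were Blvra, which encodes biliverdin reductase A (0.061), 2410075B13Rik (0.073) and Pola2, a subunit of DNA polymerase alpha (0.078), and 5 genes lay within 0.1. Nearest to the median of the RPA genes were E2f1, which encodes an E2F transcription factor (0.122), and Timeless, the partner of Tipin (0.147), and none lay within 0.1. The distances rest on 4 arrays, and all 3 ratios share the parental array.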

How the data were processed

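RNA of 4 MEF cultures was measured on MouseWG-6 v2.0 BeadChips (Illumina), 1 array per group. The authors deposited 1 table of probe intensity, averaged over beads on a linear scale and not normalized between arrays, with the bead standard error, the number of beads and a detection p-value, which the deposited table gives for each probe and array. The array methods refer to an earlier publication, and the normalization is not given in the sources used here. Detection p-values served to set the background.

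Intensities were background-corrected in limma 3.58.1 (R 4.3.3) with normexp fitted from the detection p-values (offset 16), quantile normalized over the 4 arrays and put on the log2 scale. Probes detected at p below 0.01 on at least 1 array were kept, leaving 17746 probes and 12616 genes, and the probe with the highest mean log2 signal stood for its gene. Symbols altered into dates were restored for 34 probes. The bead standard error was carried through the normalization. Lower bounds for a probe not detected on the dimmer array were set against the higher of its own value and the lowest detected value there. The main normalization was tested on simulated data, while the alternative background and normalization settings and the sequence searches were not. Later steps ran in Python 3.11.15 with numpy 2.4.6 and pandas 2.3.3.

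The offset draws ratios of dim probes toward 0, and the number of arrays limits the precision. Genes named were Rb1, the 9 genes with all probes, up to 3 genes of each list with the largest Rb-deleted to parental ratio among those past 1.6-fold with and without background correction, and the 3 nearest genes per pattern, of which 1 is not reported here. Lists were other clamps and loaders, Pcna partners, Rpa partners, G2/M genes, and fibroblast, leukocyte, epithelial and endothelial markers. Of 6 epithelial markers 4 were analysed, with summed intensities of 300.2 to 364, and of 5 endothelial markers 1 was analysed. The 9 genes and all lists were chosen with earlier results of these data known. Alternatives changed background correction, offset, normalization, detection filter, probes per gene and fold threshold.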

Additional observations from a re-analysis of the deposited data

How the results depend on the processing

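No paired analysis was possible because each group was 1 array and the labels carry no replicate numbers, and for the same reason no array could be left out. No direction reversed for a median, and no count of calls changed under median scaling, a detection p below 0.05 or detection on all 4 arrays. The median log2 ratio of the 9 genes in Rb-deleted against parental MEFs was 0.77 with an offset of 50 and 0.68 with the mean of probes. With the mean of probes the other medians that moved were -0.38 for WT Rb-HA against Rb-deleted, -0.11 for ΔCdk Rb-HA against Rb-deleted, 0.32 for WT Rb-HA against parental and 0.52 for ΔCdk Rb-HA against parental. Genes up past 1.6-fold in WT Rb-HA against parental numbered 0 without background correction, with an offset of 50 and with the mean of probes. In ΔCdk Rb-HA against parental they numbered 2 without background correction and with an offset of 50. At 1.5-fold, 3 genes were down in WT Rb-HA against Rb-deleted, and at 2-fold 0 were down there. At 2-fold, 3, 0 and 1 genes were up against parental on the Rb-deleted, the WT Rb-HA and the ΔCdk Rb-HA array. Shares of all genes under these other thresholds and settings are not given here, so the counts are not set against them. Among single genes, 2 changed sign, both in ΔCdk Rb-HA against Rb-deleted: Rfc3 ranged from -0.28 to 0.09 and Rpa2 from -0.07 to 0.03. The median of all genes never shifted by over 0.1. The cause of a move was not tested. The dimmest representative probe, that of Rpa2, had an intensity of 79.2 in parental MEFs and the largest bead standard error of the 9 for Rb-deleted against parental, 0.14.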
